A study of Homo sapiens with 2 samples.

Results

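The mRNAs of 6 splicing protein families were compared between an IMP1 precipitate and a control IgG precipitate of T47D cells. Members were taken by name alone, as genes whose symbol starts with HNRNP, SRSF, SF3A, SF3B, SNRP, PRPF or U2AF and does not end as that of a pseudogene. This gave 72 of the 18781 genes measured: 23 hnRNP genes, 12 SRSF entries, 9 SF3A and SF3B genes, 12 SNRP genes, 13 PRPF genes and 3 U2AF genes. They carried 71 symbols, because SRSF8 has 2 entries under separate Ensembl identifiers. By their RefSeq class, 68 were protein-coding genes and 1, the readthrough gene HNRNPUL2-BSCL2, was a lncRNA gene, while 3 found no match (HNRNPU-AS1, SF3B14 and PRPF4B).

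T47D is an established line of luminal breast cancer cells, labelled as wild type, and IMP1 is an RNA-binding protein with roles in mRNA localization, stability and translation. Lysate was incubated on protein A beads that carried either the IMP1 antibody or normal IgG, and RNA left on the washed beads was sequenced (RIP, RNA immunoprecipitation). Both libraries came from the same line and differed in the antibody, and the precipitates were checked by western blot. Each condition had 1 library, so no difference below has a replicate check, no test between conditions was run and all ratios describe this pair of libraries. No library of input RNA was analysed here, so that more RNA on the beads and more RNA in the lysate cannot be told apart.

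Introns are removed from pre-mRNA by the spliceosome, which is built anew on each intron from small nuclear ribonucleoproteins (snRNPs) and many further proteins. SR proteins bind exonic RNA and mostly promote the use of nearby splice sites, whereas hnRNP proteins coat nascent RNA and often repress it. Many of these proteins act in the nucleus, but their mRNAs are translated in the cytoplasm, where much of IMP1 is found.

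Levels are given in FPKM (fragment numbers corrected for transcript length and library size), and a ratio is the log2 of the IMP1 value over the IgG value, each after adding 0.1 FPKM. This scale understates the change of low genes. A gene was counted as higher or lower when its ratio was at least 1 or at most -1, a 2-fold difference. All genes together had a median ratio of 0.40, whereas the 6909 genes that reached 1 FPKM in each library had a median of -0.78. Bringing the latter median to 0 is a log2 shift of 0.79, and bringing both libraries to the same FPKM sum is a shift of 1.88, each to the side of the IMP1 library. The IgG library listed 7270 genes at 0 and the IMP1 library 1202. Depth is unknown for both, as no read counts were used.

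Of 15 luminal markers, 9 were higher with IMP1 (60%) and 0 were lower, against 39.9% and 29.9% of all genes. Of the 13 that reached 1 FPKM in each library, 7 were higher (53.8%), against 11.5% of all genes of that level. The FPKM of the 15 markers summed to 1925 with IMP1 and 832 with IgG. ESR1 (9.60 and 9.04 FPKM) and KRT8, a luminal keratin, were present in both libraries, whereas TFF1 and ELF3 were listed at 0 with IgG. Of 15 mesenchymal markers, 14 were lower in the IMP1 library (93.3%), against 29.9% of all genes. This list summed to 3.49 FPKM with IMP1 and 240 FPKM with IgG. In the IMP1 library 7 of its markers, among them DCN and LUM, were listed at 0. Blood cell markers, of which 5 of 10 were in the table, summed to 7.54 FPKM with IMP1 and 327 FPKM with IgG, of which CD74 gave 305 FPKM. The RNA MALAT1, which is retained in the nucleus, stood at 9.32 FPKM with IMP1 and 1380 FPKM with IgG, and 4 such nuclear RNAs summed to 14.5 and 1592 FPKM. The libraries thus differed in the values of cell type markers and nuclear RNA, and the part of these in the splicing gene values below was not tested. Fewer cells of a type and less RNA per cell cannot be told apart.

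The splicing genes were detected in the IMP1 library without exception, and the PRPF, SRSF and hnRNP families held the members with the lowest ratios. Of the 72 members, 13 had at least 2-fold more FPKM in the IMP1 library and 27 at least 2-fold less, against 39.9% higher and 29.9% lower among all genes. The higher share was 18.1% and the lower share 37.5%. Among the 64 members that reached 1 FPKM in each library, 6 were higher (9.38%) and 27 were lower (42.2%), near the background of 11.5% and 44.0% over all genes of that level. Their median ratio was -0.53 against -0.78, and 34 of the 64 lay above the median gene. At 10 FPKM or more in a library, 3 of 51 members were higher and 25 were lower (49.0%), against 14.0% and 56.5% of all such genes. At a limit of 4-fold, 5 of the 72 were higher and 12 were lower, against 26.1% and 17.3% of all genes. Of the 64, 1 was then higher and 12 were lower (18.8%), against 3.27% and 20.3% of genes of that level. The IgG library listed 4 members at 0 and the IMP1 library none. As a group, then, the members stood close to other genes of their level. Ratios of the 64 single members ran from -4.31 to 2.37, and whether the families differed was not tested.

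**Figure D1:**
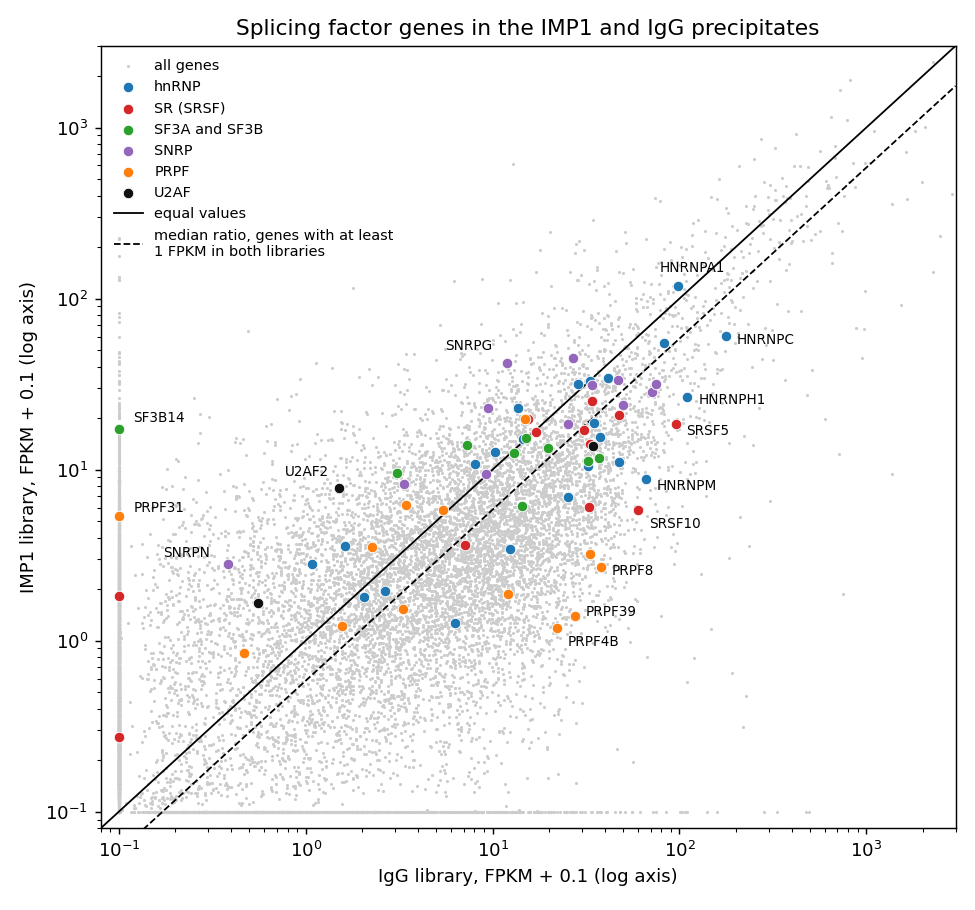
Each coloured point is 1 of the 72 members, with FPKM + 0.1 in the IgG library on the x axis and in the IMP1 library on the y axis, both log axes, and grey points are all genes. PRPF39, PRPF4B and PRPF8 lie far below both lines, and SF3B14 and PRPF31 lie on the left edge because the IgG library lists them at 0.

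The summed FPKM of all members was 1134 with IMP1 and 1962 with IgG, a log2 ratio of -0.79, while their share of the whole table was 0.320% with IMP1 and 0.151% with IgG. So the sign of the summed difference depended on the scale, as FPKM were fewer in all in the IMP1 library. On the deposited scale the family medians ran from -0.91 for SRSF through -0.45 for hnRNP, -0.36 for PRPF, -0.05 for SF3A and SF3B and -0.05 for SNRP to 1.58 for the 3 U2AF genes. With the median gene set to 0 these medians turned positive (0.32 for hnRNP, 0.39 for PRPF, 0.74 for SF3A and SF3B and 0.74 for SNRP) except for SRSF at -0.13, and with equal sums all 6 were positive, with SRSF lowest at 0.95. SRSF had the lowest family median on each of these 3 scales, although among members that reached 1 FPKM in each library the PRPF median was the lower, at -1.11 against -1.08.

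Few members were lower on every scale. With the median gene set to 0, 14 members remained at least 2-fold lower, against 21.3% of all genes, and with equal sums 6 remained so, against 13.0% of all genes. All of these lay among the 64 members that reached 1 FPKM in each library, as 21.9% and 9.38% of them, and the shares over all genes of that level were 24.9% and 7.96%, so neither count stood far from the background. Among them were PRPF39, PRPF4B, PRPF8, SRSF10 and HNRNPM, with ratios of -2.51, -2.45, -1.99, -1.51 and -1.04 on the scale of equal sums. The 14 further held PRPF3, SRSF11, SRSF5, HNRNPU-AS1, HNRNPA3, HNRNPH1, HNRNPH2 and HNRNPR. No SF3A, SF3B, SNRP or U2AF gene was among the 14. In the other direction, 24 members were higher with the median gene set to 0, against 49.3% of all genes, and 43 with equal sums, against 63.7% of all genes. The shares over all genes include the many listed at 0 with IgG. Of the 64 members, 16 (25.0%) and 35 (54.7%) were higher on these scales, against 25.0% and 51.6% of all genes of that level. Both rescalings raise the IMP1 values, so these hold the 13 that were higher on the deposited scale.

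The order of the members also differed between the libraries. HNRNPA1, the best known shuttling hnRNP protein, was the most abundant member with IMP1, followed by HNRNPC, HNRNPA2B1, SNRPB and SNRPG. With IgG the order began with HNRNPC, HNRNPH1, HNRNPA1, SRSF5 and HNRNPA2B1. Of the 10 highest members of each library, 4 were shared (HNRNPA1, HNRNPC, HNRNPA2B1 and SNRPE). SNRP genes held 26.1% of the members' FPKM with IMP1 and 18.4% with IgG, whereas SRSF genes held 13.1% and 19.0% and PRPF genes 4.70% and 8.32%. The hnRNP share was close in both, at 44.4% and 45.2%.

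**Figure D2:**
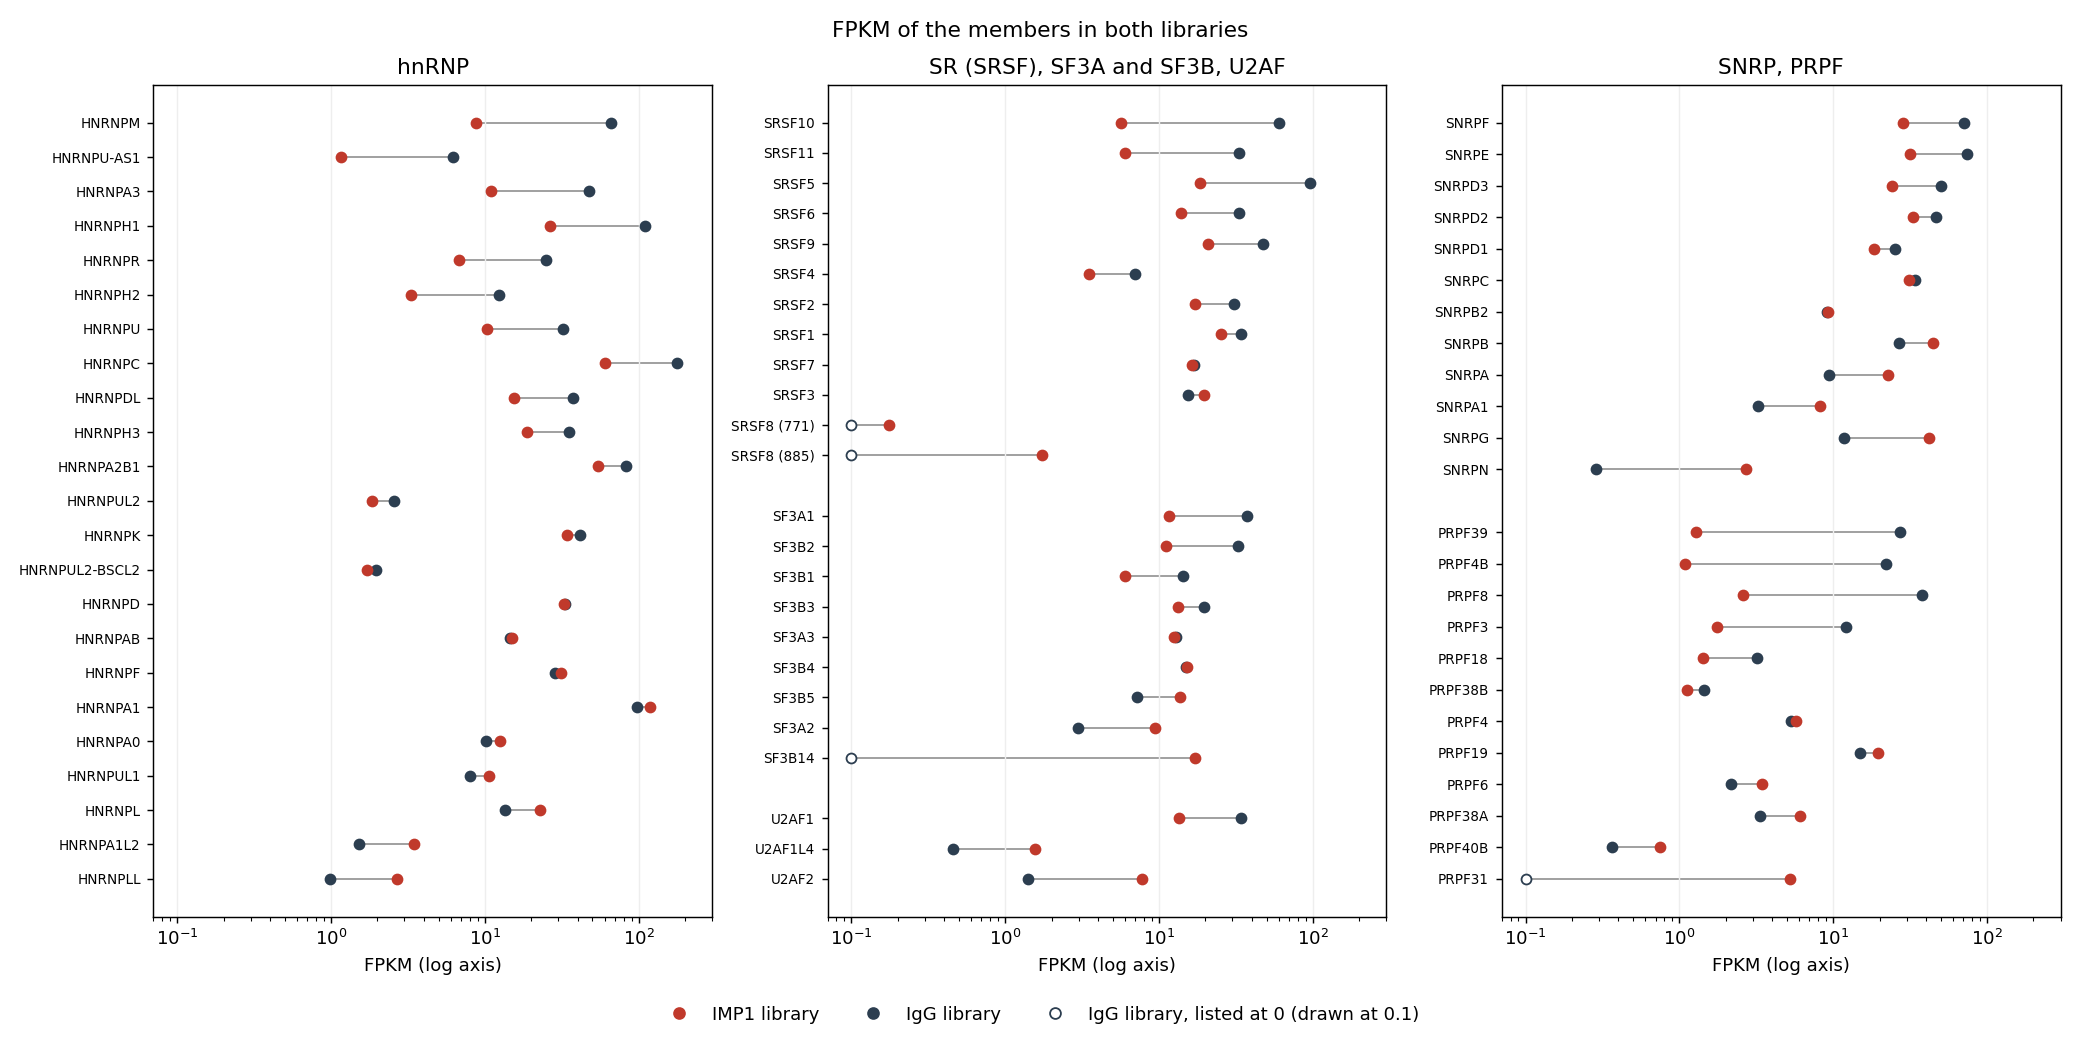
FPKM of 71 of the 72 members on a log axis, with the IMP1 library in red and the IgG library in dark blue, ordered by ratio within each family; open points mark members listed at 0 with IgG and drawn at 0.1. The widest gaps to the side of IgG are those of PRPF39, PRPF4B, PRPF8 and SRSF10, and the SRSF8 entries are told apart by the last digits of their identifiers.

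The 13 PRPF genes, named after yeast pre-mRNA processing mutants, held the lowest ratios of all members. PRPF39, a protein of the U1 snRNP that helps to select the 5′ splice site, stood at 1.29 FPKM with IMP1 and 27.3 FPKM with IgG, a ratio of -4.31. PRPF4B, a kinase that acts on spliceosome proteins, stood at 1.08 and 22.0 FPKM (-4.23). PRPF8, the large scaffold protein at the catalytic centre of the spliceosome, stood at 2.58 and 37.8 FPKM (-3.82). In plain FPKM the IgG value exceeded the IMP1 value 21.3-fold for PRPF39, 20.4-fold for PRPF4B and 14.6-fold for PRPF8.

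PRPF40B, counted with the U1-associated proteins, was low in both libraries, at 0.747 FPKM with IMP1 and 0.366 FPKM with IgG (0.86). PRPF3, a protein of the U4/U6 snRNP, stood at 1.77 and 12.0 FPKM (-2.70), and PRPF18, needed for the second catalytic step, at 1.43 and 3.21 FPKM (-1.11).

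The remaining PRPF genes stood at similar or higher FPKM with IMP1. PRPF19, a ubiquitin ligase that gives the Prp19 complex its name, was the most abundant PRPF gene with IMP1, at 19.7 FPKM, against 14.9 FPKM with IgG, and so made up 36.9% of the family's FPKM with IMP1 and 9.13% with IgG. PRPF8 was the most abundant with IgG and moved the other way, from 23.1% of the family there to 4.84% with IMP1. PRPF38A, a protein of the precatalytic spliceosome, had 6.07 and 3.33 FPKM (0.85), and its paralog PRPF38B had 1.12 and 1.46 FPKM (-0.36). PRPF6, which joins U5 to U4/U6 in the tri-snRNP, had 3.43 and 2.15 FPKM (0.65).

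Transcripts of proteins that meet in the tri-snRNP therefore had ratios on both sides of 0. PRPF8 exceeded PRPF6 17.5-fold with IgG and lay below it with IMP1, at 0.752 of its level. PRPF4, the partner of PRPF3, had nearly equal values of 5.71 and 5.34 FPKM. PRPF31, another U4/U6 protein whose mutation causes retinal degeneration, had 5.26 FPKM with IMP1 and was listed at 0 with IgG, as was EFTUD2, a core U5 protein outside the 6 families, at 5.75 FPKM with IMP1 (named after its values were seen). Because each cell that splices needs these proteins, the zeros of the IgG library are given only as listed, with no fold. Of the 13 PRPF genes, 6 were lower, 6 were counted as neither, and PRPF31 was the only one counted as higher. Over all genes, 29.9% were lower and 39.9% were higher. Of the 11 PRPF genes that reached 1 FPKM in each library, 6 were lower (54.5%) and 0 were higher. Among all genes of that level, 44.0% were lower and 11.5% were higher.

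The SRSF genes encode the SR proteins. On the deposited scale 5 of the 12 were lower, and the 2 counted as higher were the SRSF8 entries. Over all genes, 29.9% were lower and 39.9% were higher. Of the 10 that reached 1 FPKM in each library, 5 were lower (50.0%) and 0 were higher. The shares over all genes of that level were near this for lower, at 44.0%, and 11.5% for higher. SRSF10, an SR protein that turns into a repressor of splicing when dephosphorylated, stood at 5.70 FPKM with IMP1 and 59.9 FPKM with IgG (-3.37), a 10.5-fold difference. SRSF11, a further SR-like factor, had 5.97 and 32.9 FPKM (-2.44). SRSF5 was the most abundant SRSF gene with IgG, with 95.4 FPKM there and 18.4 FPKM with IMP1 (-2.37). SRSF5 and SRSF10 together with SRSF11 were also the SRSF genes that stayed at least 2-fold lower once the median gene was set to 0.

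At the other end, SRSF3, the smallest SR protein and an adaptor for mRNA export, had 19.7 FPKM with IMP1 and 15.4 FPKM with IgG (0.35). SRSF7, its close relative with a zinc knuckle, had 16.5 and 17.0 FPKM (-0.04). SRSF1, the founding SR protein, was the most abundant with IMP1, at 25.1 FPKM, against 34.1 FPKM with IgG (-0.44). The balance within the family differed accordingly: SRSF5 exceeded SRSF3 6.19-fold with IgG and was at 0.933 of its level with IMP1. SRSF10 took 16.1% of the family's FPKM with IgG and 3.84% with IMP1, and SRSF3 took 4.13% and 13.3%.

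The SR proteins with an additional RNA recognition motif (SRSF1, SRSF4, SRSF5, SRSF6 and SRSF9) had a median ratio of -1.18, and the 7 entries with a single motif had a median of -0.04, or -0.85 over the 5 of them that reached 1 FPKM in each library. With equal sums both medians were positive, at 0.69 and 1.83. SRSF2, which binds exonic enhancers, had 17.0 FPKM with IMP1 and 30.7 FPKM with IgG (-0.85). SRSF8, an expressed retrocopy of SRSF2, had 0.175 and 1.72 FPKM with IMP1 in its 2 entries, and both were listed at 0 with IgG. Both entries share 1 deposited locus, and reads of SRSF2 and SRSF8 may have been divided between the copies, so the SRSF8 values are uncertain.

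The 23 hnRNP genes spanned ratios from -2.91 to 1.37, with 9 lower (39.1%) and 2 higher (8.70%), against 29.9% and 39.9% of all genes. Of the 22 that reached 1 FPKM in each library, 9 were lower (40.9%) and 1 was higher (4.55%). Among all genes of that level, 44.0% were lower and 11.5% were higher, so the lower share was near the background. HNRNPM, which binds GU-rich RNA and regulates alternative exons, stood at 8.71 FPKM with IMP1 and 66.0 FPKM with IgG (-2.91), a 7.58-fold difference. HNRNPA3 had 11.0 and 47.3 FPKM (-2.09). HNRNPH1, which binds runs of G, had 26.6 and 110 FPKM (-2.05). HNRNPC, which binds runs of U, was the most abundant hnRNP gene with IgG, at 178 FPKM, and had 60.1 FPKM with IMP1 (-1.56), so HNRNPC lay lower by 2-fold on the deposited scale and not after either rescaling.

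HNRNPA1 was the most abundant member with IMP1, at 118 FPKM, and had 97.7 FPKM with IgG (0.27). It made up 23.4% of the hnRNP FPKM with IMP1 and 11.0% with IgG, and HNRNPC made up 11.9% and 20.1%. HNRNPC exceeded HNRNPA1 1.82-fold with IgG, and with IMP1 it was at 0.510 of its level. Its relatives in the A/B group ranged from HNRNPA3 (-2.09) to HNRNPA1L2 (1.15): HNRNPA2B1 had 54.7 and 83.0 FPKM (-0.60), HNRNPAB had 15.0 and 14.5 FPKM (0.05) and HNRNPA0 had 12.5 and 10.2 FPKM (0.29). The median ratio of the 6 A/B genes was 0.16 and that of the 4 F/H genes, which bind runs of G, was -1.38.

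Within the F/H group HNRNPF stood apart from HNRNPH1 and HNRNPH2. HNRNPF had 31.4 FPKM with IMP1 and 28.5 FPKM with IgG (0.14), HNRNPH2 had 3.32 and 12.3 FPKM (-1.86), and HNRNPH3 had 18.7 and 34.9 FPKM (-0.90). HNRNPF was thus at 0.259 of the HNRNPH1 level with IgG and exceeded it 1.18-fold with IMP1. HNRNPK, a protein with KH domains that binds runs of C, had 34.3 and 41.2 FPKM (-0.26), and HNRNPD, known as AUF1 for its binding of AU-rich elements, had 32.7 and 33.2 FPKM (-0.03).

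The hnRNP genes with the largest ratios were HNRNPLL, HNRNPA1L2 and HNRNPL. HNRNPL, which binds CA repeats, had 22.8 FPKM with IMP1 and 13.6 FPKM with IgG (0.74), and its paralog HNRNPLL, a regulator of alternative exons in lymphocytes, had 2.70 and 0.985 FPKM (1.37). HNRNPA1L2, a retrocopy of HNRNPA1, had 3.48 and 1.52 FPKM (1.15), while HNRNPA1 exceeded it 33.9-fold with IMP1 and 64.4-fold with IgG. As the 2 sequences are nearly identical, the division of reads between them is uncertain. Of the 11 HNRNPA1 pseudogene entries of the table, which the name rule left out, 7 were above 0 with IMP1 and 6 with IgG. HNRNPA1 with these entries summed to 124 FPKM with IMP1 and 108 FPKM with IgG, and so kept its direction on the deposited scale.

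HNRNPU, a protein of the nuclear scaffold, had 10.4 FPKM with IMP1 and 32.3 FPKM with IgG (-1.63). Its antisense partner HNRNPU-AS1 had 1.17 and 6.17 FPKM (-2.31). Both entries lie in 1 deposited locus (hg19 chr1:244998624-245027844), the sources used here do not say whether strand was counted, and reads of the pair cannot then be told apart. HNRNPUL2 and the readthrough gene HNRNPUL2-BSCL2 likewise share a locus, with 1.85 and 2.55 FPKM for the former and 1.70 and 1.95 FPKM for the latter.

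SF3A and SF3B are parts of the U2 snRNP that hold it to the branch site of the intron, and their 9 subunit mRNAs were more even with IMP1 than with IgG. In the IMP1 library the 9 ranged from 5.99 to 17.2 FPKM, a 2.87-fold range. In the IgG library they ranged from 0 to 37.2 FPKM. Of the SF3A subunits, SF3A1 had 11.6 FPKM with IMP1 and 37.2 FPKM with IgG (-1.67), SF3A3 had 12.5 and 12.9 FPKM (-0.05), and SF3A2 had 9.44 and 2.97 FPKM (1.64). The 3 SF3A mRNAs thus spanned 1.32-fold with IMP1 and 12.5-fold with IgG.

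Among the SF3B subunits, SF3B2 had 11.1 FPKM with IMP1 and 32.4 FPKM with IgG (-1.54). SF3B1, which contacts the branch region and is often mutated in cancer, had 5.99 and 14.2 FPKM (-1.24). SF3B3, a large scaffold subunit, had 13.4 and 19.7 FPKM (-0.56). SF3B4 was nearly equal at 15.2 and 15.0 FPKM (0.02), and SF3B5, the smallest subunit, had 13.7 and 7.16 FPKM (0.93). SF3B14, now named SF3B6, which sits at the branch point adenosine, had 17.2 FPKM with IMP1, the highest value of the family there, and was listed at 0 with IgG. Of the 9 subunits, 3 were lower and 2 were higher on the deposited scale, against 29.9% and 39.9% of all genes. With the median gene set to 0, none was lower and 3 were higher, against 21.3% and 49.3% of all genes. On the deposited scale, of the 8 that reached 1 FPKM in each library, 3 were lower (37.5%) and 1 was higher (12.5%). Among all genes of that level, 44.0% were lower and 11.5% were higher.

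**Figure D3:**
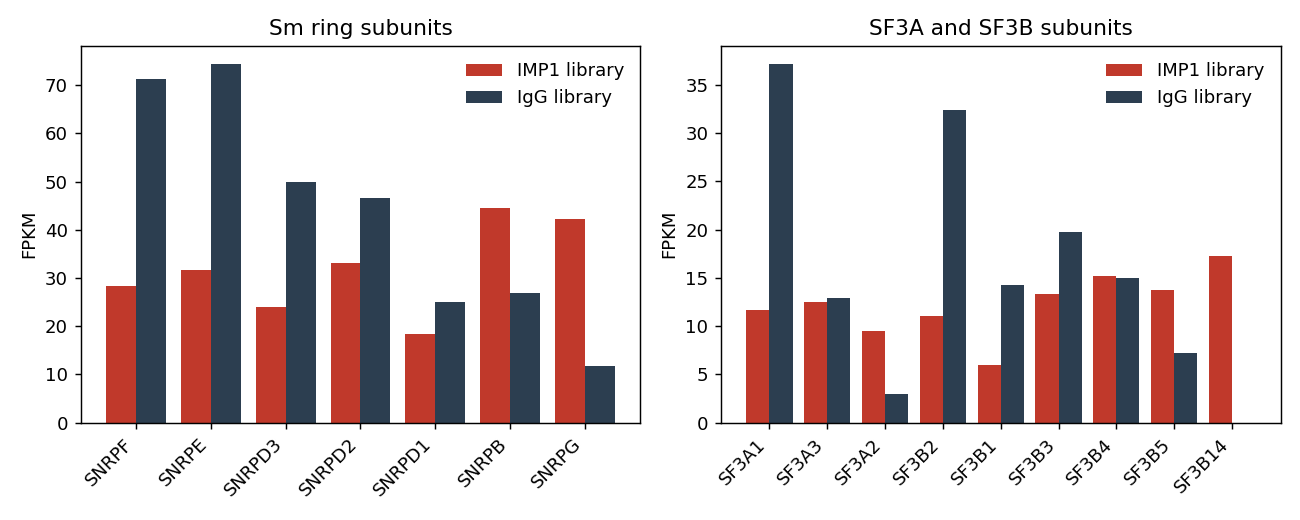
Bars give FPKM of the 7 Sm ring subunits (left) and of the 9 SF3A and SF3B subunits (right), with the IMP1 library in red and the IgG library in dark blue and both axes from 0. The red bars span 2.42-fold in the Sm ring and 2.87-fold in SF3A and SF3B, and the dark blue bars span 6.32-fold in the Sm ring (3.09-fold with pseudogene entries added) and reach from 0 to 37.2 FPKM in SF3A and SF3B.

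The SNRP genes encode the Sm proteins, which form a ring on the snRNAs, and proteins particular to U1 or U2. Of the 12, 4 were higher (33.3%) and 3 were lower (25.0%), against 39.9% and 29.9% of all genes. Of the 11 that reached 1 FPKM in each library, 3 were higher and 3 were lower (27.3% each). Among all genes of that level, 11.5% were higher and 44.0% were lower. Of the 7 ring subunits, SNRPF had 28.3 FPKM with IMP1 and 71.3 FPKM with IgG (-1.33), SNRPE had 31.7 and 74.5 FPKM (-1.23) and SNRPD3 had 23.9 and 49.8 FPKM (-1.06). These were the 3 lower SNRP genes, and with the median gene set to 0 none of the 12 was lower by 2-fold. SNRPD2 had 33.1 and 46.7 FPKM (-0.49), and SNRPD1 had 18.4 and 25.1 FPKM (-0.44). SNRPB, which gives both SmB and SmB′, had 44.5 and 26.9 FPKM (0.73) and was the most abundant SNRP gene with IMP1, where SNRPE was the most abundant with IgG.

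SNRPG, the remaining ring subunit, had 42.2 FPKM with IMP1 and 11.8 FPKM with IgG (1.83). Its pseudogene entry SNRPGP12, outside the members, was listed at 0 with IMP1 and stood at 29.2 FPKM with IgG, so that gene and pseudogene together came to 42.2 and 41.0 FPKM. Sums over entries of unequal length are approximate, but the higher SNRPG value with IMP1 was not seen in this sum. The ring as a whole summed to 222 FPKM with IMP1 and 306 FPKM with IgG, and its subunits spanned 2.42-fold and 6.32-fold, or 2.42-fold and 3.09-fold once pseudogene entries were added to their parent genes.

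SNRPA, the U1 protein that binds a stem-loop of U1 snRNA, had 22.7 FPKM with IMP1 and 9.40 FPKM with IgG (1.26). SNRPC, the U1 protein next to the 5′ splice site, was nearly equal at 31.0 and 33.8 FPKM (-0.13). Of the pair of U2 proteins, SNRPA1 had 8.19 and 3.26 FPKM (1.30) and SNRPB2 had 9.27 and 9.10 FPKM (0.03). Of the 2 SNRP genes grouped under U1, and likewise of the 2 under U2, 1 was counted as higher and the other had nearly the same value in both libraries. Proteins of these snRNPs outside the SNRP genes are not part of this count. SNRPN, the imprinted SNRPB paralog best known from brain, had 2.71 and 0.286 FPKM (2.86), and SNRPB exceeded it 16.4-fold with IMP1 and 93.9-fold with IgG. SNRPN shares its deposited locus with 8 overlapping entries, SNURF among them, and reads shared with SNRPB could have been split.

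U2AF recognises the 3′ end of the intron as a dimer, and the mRNAs of its subunits had ratios of opposite sign. U2AF1, the small subunit that reads the AG at the 3′ splice site, had 13.6 FPKM with IMP1 and 34.3 FPKM with IgG (-1.33). U2AF2, the large subunit that binds the polypyrimidine tract, had 7.69 and 1.41 FPKM (2.37), 5.47-fold higher with IMP1. U2AF1 exceeded U2AF2 24.4-fold with IgG and 1.76-fold with IMP1. U2AF1L4, a paralog of the small subunit, had 1.57 and 0.456 FPKM (1.58). With equal sums the U2AF1 ratio turned positive, and U2AF2 stayed higher on each scale.

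Over the members, 3 of the 13 counted as higher had at least 10 FPKM in a library (SF3B14, SNRPA and SNRPG), 1 of them listed at 0 with IgG and 1 affected by its pseudogene. Near the 2-fold limit on the lower side, SNRPD3 (-1.06) and PRPF18 (-1.11) lay just inside, and SRSF4 (-0.98) and HNRNPH3 (-0.90) just outside. On the higher side, HNRNPA1L2 (1.15) and SNRPA (1.26) lay inside, and SF3B5 (0.93) and PRPF40B (0.86) outside. As deposited, 35 members lay in a locus that overlaps a gene of another symbol and 37 did not, with median ratios of -0.26 and -0.44.

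A further 149 of 152 listed splicing genes outside the 6 families were in the table, of which 30 were higher (20.1%) and 72 were lower (48.3%), with a median of -0.87, against 39.9%, 29.9% and 0.40 over all genes. Among the 120 of them that reached 1 FPKM in each library, 11 were higher (9.17%) and 65 were lower (54.2%), against 11.5% and 44.0% of all genes of that level, and the median was -1.16, against -0.78 for those genes and -0.53 for the members. The counts of single lists below are read against the shares over all genes. The lowest list medians were those of the Prp19 complex (-1.83, with 4 higher and 11 lower of 19), of SR-related proteins and SR kinases (-1.73, with 4 and 14 of 22) and of the exon junction complex (-1.54, with 2 and 5 of 9). With the median gene set to 0 these 3 medians stayed negative, at -1.05, -0.94 and -0.77, and with equal sums they were 0.02, 0.14 and 0.30. CWC27, of the Prp19-related group, had 1.25 FPKM with IMP1 and 21.4 FPKM with IgG, and SNW1, in the same group, had 7.69 and 5.88 FPKM. SREK1, an SR-related regulator, had 1.93 and 45.2 FPKM (-4.48), and CLK2, a kinase of SR proteins, had 4.35 and 1.39 FPKM (1.57). In the exon junction complex, which marks spliced mRNA, MAGOH had 7.21 and 46.9 FPKM (-2.69) and its partner RBM8A had 12.1 and 4.70 FPKM (1.35).

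The medians of the other lists lay closer to that of the members (-0.40). Of 42 hnRNP-like and other splicing regulators 5 were higher and 24 were lower (median -1.23). This lower share of 57.1% was not closer to the members, at 37.5%, than that of the exon junction list, at 55.6%. Among these regulators were MBNL3, a muscleblind protein, at 1.03 FPKM with IMP1 and 25.7 FPKM with IgG and PUF60, a U2AF-like factor, at 18.7 and 1.46 FPKM. The 11 spliceosomal helicases had a median of -0.80, with 2 higher and 2 lower. The end points named for these lists are those among genes that reached 1 FPKM in each library, and genes at lower or zero values can lie beyond them. For the helicases these were DDX5 at 34.3 and 136 FPKM and DDX39A at 9.59 and 10.7 FPKM. Of 21 further snRNP subunits 6 were higher and 9 were lower (median -0.44), from ZCRB1 of the minor spliceosome at 11.2 and 139 FPKM to TXNL4A of U5 at 15.0 and 5.68 FPKM. Of 17 snRNP assembly factors 5 were higher and 5 were lower (-0.40), from GEMIN2 at 4.41 and 20.0 FPKM to WDR77 at 5.04 and 1.08 FPKM. The 8 U6 and Sm-like proteins had 2 higher and 2 lower (-0.52), from LSM4 at 17.0 and 46.9 FPKM to LSM6 at 3.98 and 1.39 FPKM. Whether the lists differed was not tested.

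**Figure D4:**
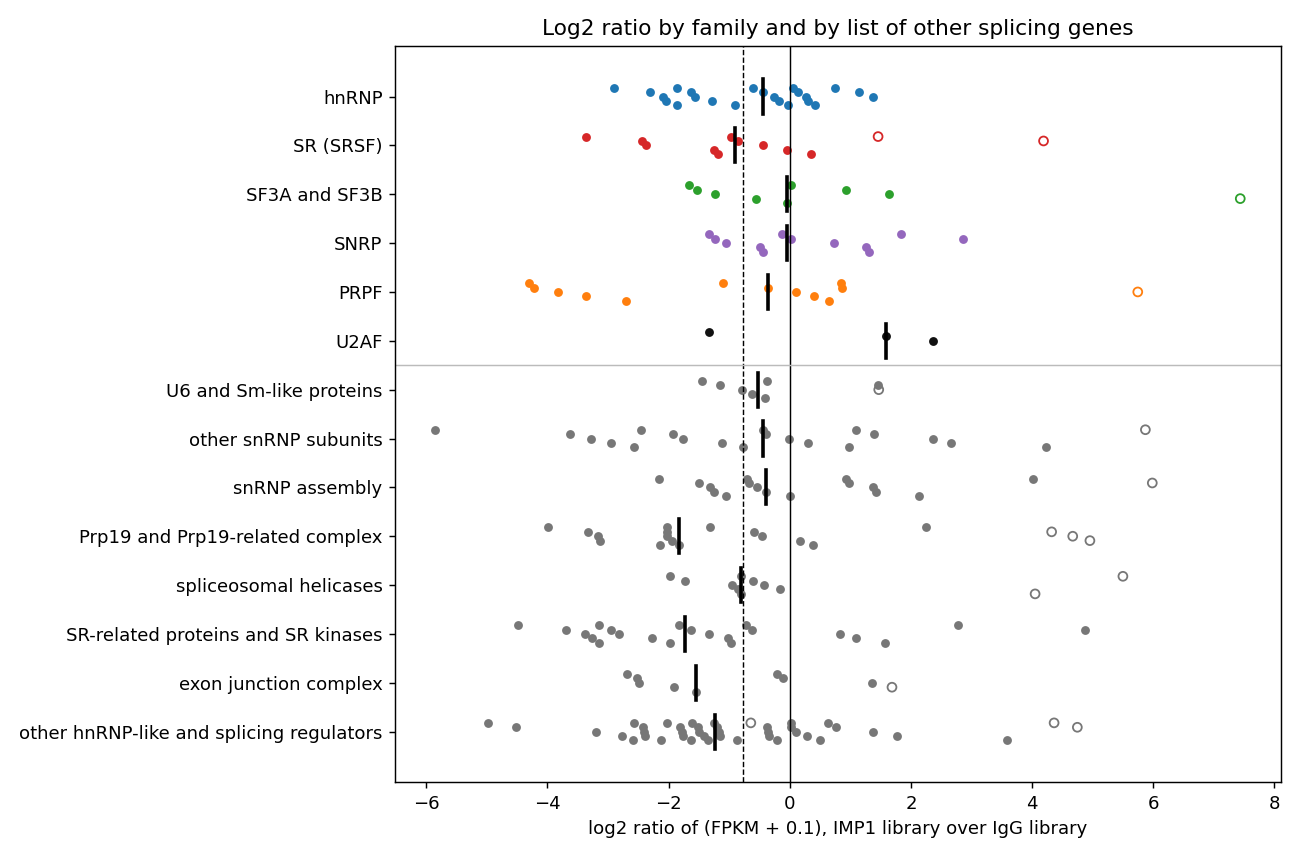
Log2 ratio of each gene on the deposited scale, by family (coloured) and by list of other splicing genes (grey), with the median as a black bar, open points for genes listed at 0 in a library and the dashed line at the median gene (-0.78). The Prp19, SR-related and exon junction lists have medians of -1.83, -1.73 and -1.54, and those of SF3A and SF3B and of SNRP lie at -0.05; with equal sums all of these medians are positive.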

How the data were processed

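RNA from 1 IMP1 and 1 IgG precipitate of T47D cells was compared. The authors deposited FPKM values per gene (per the labels, build hg19). The aligner, the FPKM software, the annotation and the strand setting are not given in the sources used here, and the sources differ on the incubation time on the beads. Exact zeros, written as 1e-05, were set back to 0. The fold change, p-value and q-value columns hold the authors' own comparison and were not used.

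The log2 ratio of FPKM + 0.1 was computed for all genes. FPKM carry no depth, so no interval is given. Members, lists and marker genes were chosen with earlier results of these data known. Named genes are, per family, the 2 largest and 2 smallest ratios among members that reached 1 FPKM in each library, the highest member of each library, members at 0 or at least 2-fold higher, paralog pairs, subunits of SF3A, SF3B and the Sm ring, and the extremes of each other list; further members were named after their values were seen. A member counted in the totals is not reported here by name. Locus starts count from 0 in the deposited table, and 1 was added. Loci are merged regions of overlapping genes. RefSeq classes came from GRCh38.p14. Alternatives were other pseudocounts, filters, rescalings and thresholds. Counting was tested on simulated data. Python 3.11.15, numpy 2.4.6, pandas 2.3.3 and matplotlib 3.10.9 were used.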

Additional observations from a re-analysis of the deposited data

Results flagged for a closer look

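Of the pseudogene entries outside the members, 3 reached 1 FPKM in the IMP1 library and were above their value in the IgG library. HNRNPA1P10 had 2.01 FPKM and HNRNPA1P7 had 2.24 FPKM with IMP1, and both were listed at 0 with IgG. HNRNPA1P48 had 1.18 FPKM with IMP1 and 0.486 FPKM with IgG. As a whole the 26 entries summed to 8.38 FPKM with IMP1 and 51.3 FPKM with IgG, where 5 reached 1 FPKM. SNRPGP12 (29.2 FPKM with IgG), HNRNPA1P58 (8.60 FPKM) and SNRPEP4 (2.96 FPKM) were listed at 0 with IMP1, and HNRNPCP2 had 0.933 FPKM with IMP1 and 5.60 FPKM with IgG. Of the 26 pseudogene entries, 18 were above 0 with IMP1, 13 with IgG and 5 in both.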

How the results depend on the processing

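No paired analysis was possible because each group is a single library, so that no replicate number is shared beyond 1 pair, and no replicate could be left out. With a pseudocount of 1 the median ratios were -0.29 over the members, -0.32 for hnRNP, -0.21 for PRPF and 0.82 for U2AF, and with 0.01 the U2AF median was 1.76. Among members that reached 1 FPKM in each library, 6 were higher and the medians were -0.53 over the members, -1.08 for SRSF, -0.31 for SF3A and SF3B, -1.11 for PRPF and 0.52 for U2AF, from fewer members. With the median gene set to 0, 24 members were higher and 14 were lower. The medians were then 0.37 over the members, 0.32 for hnRNP, 0.74 for SF3A and SF3B, 0.74 for SNRP and 0.39 for PRPF, all of opposite sign, and -0.13 for SRSF and 2.34 for U2AF. With equal sums 43 were higher and 6 were lower, and the medians were 1.43 over the members, 1.37 for hnRNP, 0.95 for SRSF, 1.81 for SF3A and SF3B, 1.82 for SNRP and 1.43 for PRPF, all of opposite sign, and 3.39 for U2AF. These shifts follow from the rescaling itself. Without antisense, readthrough and retrocopy entries the SRSF median was -1.08, from fewer entries. At 4-fold, 5 members were higher and 12 were lower, against 26.1% and 17.3% of all genes. Over the 37 members with a locus of their own, an alternative chosen after seeing the data, 7 were higher and 16 were lower. Over all genes, 39.9% were higher and 29.9% were lower, and no share was computed for genes with a locus of their own. The medians of these members were -1.28 for hnRNP, -1.53 for PRPF and, reversed, -1.33 for U2AF, which leaves only U2AF1. With pseudogene entries added to their parents, also chosen after seeing the data, the Sm ring spanned 3.09-fold in place of 6.32-fold with IgG and 2.42-fold as before with IMP1. Of the values under alternatives, 29 stayed within 0.1 (log2) for a median or within 1.5 times for a count or range, 26 moved further and 12 changed sign. Depth is unknown, so the precision of low FPKM values is not known.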
